A study of Homo sapiens with 18 samples.

Results

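Imprinted loci were described here through the ATAC-seq windows that lie at 10 genes expressed from only the maternal or the paternal chromosome: H19, IGF2, KCNQ1, CDKN1C, MEG3, DLK1, PEG3, PEG10, MEST and PLAGL1. A window was taken as a member when it overlapped the GENCODE span of the gene in GRCh37, extended by 10 kb on each side. This gave 40 of the 89428 windows in the deposited table, or 0.0447%. Of these, 18 overlapped the region from 1 kb before to 100 bp after an annotated start of the gene and were called promoter windows, 5 overlapped such a region of another gene only, and 17 were called distal. KCNQ1 held 12 windows, CDKN1C, PEG3, PEG10 and MEST held 5 each, PLAGL1 held 4, H19 held 3, and DLK1 held 1, which was distal. No window of the table fell at IGF2 or MEG3, which are not analysed here.

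Accessibility had been measured by Tn5 transposition (ATAC-seq) in 6 human ovarian cancer cell lines with 3 libraries each, untreated and grown in one medium. Each of 3 pairs joins a line labelled sensitive to platinum with one labelled resistant. A2780 is sensitive, and resistant CP70 was derived from it in culture, so this resistant line is a laboratory derivative. PEA1 (sensitive) and PEA2 (resistant) came from one patient and PEO1 (sensitive) and PEO4 (resistant) from another, so each pair stands for a single tumour. Values are FPKM, which scale the fragments in a window by its length and by the mapped reads of the library, in windows of 1001 bp that start every 900 bp and overlap by 101 bp. Nothing in the labels says that the 3 libraries of a line came from separate cultures. Every p-value therefore measures only the spread between these libraries, except in the test over the 3 pairs, which used line means.

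Genomic imprinting marks a control region by DNA methylation on the chromosome from only one parent, and the mark is kept through cell division in the tissues of the body. On the unmethylated chromosome the region is open and acts as a promoter or as a binding place for the insulator protein CTCF, and the genes around it are then switched on or off on that chromosome. ZFP57 and ZNF445 bind methylated control regions and recruit TRIM28, and DNMT1 with UHRF1 copies the methylation at each division. Several imprinted genes act on growth, among them the growth factor gene IGF2 and the cell cycle inhibitor CDKN1C, and loss of their imprint is known from many tumours, ovarian cancer included. Reads from both parental chromosomes were counted together, so an open control region on either or on both could not be told apart. More DNA copies of a region and more open chromatin per copy also cannot be told apart in these values. For that reason the median log2 fold change of all tested windows in the same 5 Mb of the chromosome is given beside the main changes (the 5 Mb median).

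Sequence stretches of the windows on which the results turn are shown first, read 5′ to 3′ on the strand of the gene from GRCh37, with motif matches in capitals. The motifs were TGCCGC, the hexamer known for ZFP57, GGNGGCAG, a core of the CTCF motif, and GCCATNTT, a core of the YY1 motif, each searched on both strands. With C at its free position the CTCF core holds the reverse complement of the ZFP57 hexamer, so that such matches count for both. For H19 the stretch lies before the most used start of the gene, in the control region known to hold CTCF sites (chr11:2023387-2023506, minus strand), and its capitals mark a CTCF core:
H19: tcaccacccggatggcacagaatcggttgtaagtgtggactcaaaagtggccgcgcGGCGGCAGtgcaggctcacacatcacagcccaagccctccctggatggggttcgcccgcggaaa
In PEG3 both stretches lie in the part of the gene start with the largest changes (chr19:57350219-57350518 and chr19:57350981-57351280, minus strand), and their capitals mark YY1 cores, CTCF cores and ZFP57 hexamers, which recur in a repeated unit:
PEG3, 1.8 kb into the gene: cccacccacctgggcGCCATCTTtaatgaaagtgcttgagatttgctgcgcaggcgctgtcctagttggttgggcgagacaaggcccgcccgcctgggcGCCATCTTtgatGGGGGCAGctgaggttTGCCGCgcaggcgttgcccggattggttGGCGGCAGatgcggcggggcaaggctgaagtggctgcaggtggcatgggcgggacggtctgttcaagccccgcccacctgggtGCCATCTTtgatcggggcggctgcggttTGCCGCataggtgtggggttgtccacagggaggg
PEG3, 0.9 kb into the gene: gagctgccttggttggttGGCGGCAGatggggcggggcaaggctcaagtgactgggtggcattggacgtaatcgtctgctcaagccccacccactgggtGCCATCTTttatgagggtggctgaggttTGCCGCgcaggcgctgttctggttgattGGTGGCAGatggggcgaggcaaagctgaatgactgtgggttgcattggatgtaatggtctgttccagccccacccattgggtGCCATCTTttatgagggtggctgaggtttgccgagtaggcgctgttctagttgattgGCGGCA
PLAGL1 has an imprinted canonical start and an upstream start that is not known to be imprinted, and stretches of the windows at each are shown because their accessibility differed among the lines (chr6:144328999-144329238 and chr6:144385360-144385599, minus strand). Their capitals mark ZFP57 hexamers and, at the canonical start, a CTCF core:
PLAGL1, canonical start: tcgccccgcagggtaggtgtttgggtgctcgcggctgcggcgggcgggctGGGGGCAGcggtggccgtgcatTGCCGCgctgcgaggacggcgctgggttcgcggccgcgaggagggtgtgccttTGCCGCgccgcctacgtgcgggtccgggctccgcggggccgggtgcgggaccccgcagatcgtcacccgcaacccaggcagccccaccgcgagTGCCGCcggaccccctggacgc
PLAGL1, upstream start: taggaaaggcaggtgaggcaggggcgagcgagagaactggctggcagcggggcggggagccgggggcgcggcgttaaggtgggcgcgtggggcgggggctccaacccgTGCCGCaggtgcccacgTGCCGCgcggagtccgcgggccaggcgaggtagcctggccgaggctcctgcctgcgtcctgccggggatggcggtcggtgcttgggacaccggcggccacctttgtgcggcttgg
MEST likewise has an imprinted canonical start and an upstream start (chr7:130131716-130131955 and chr7:130125802-130126041, plus strand). The canonical stretch holds overlapping ZFP57 hexamers, in capitals. None of the motifs was found in the upstream stretch, but its whole window held 1 ZFP57 hexamer and 1 CTCF core:
MEST, canonical start: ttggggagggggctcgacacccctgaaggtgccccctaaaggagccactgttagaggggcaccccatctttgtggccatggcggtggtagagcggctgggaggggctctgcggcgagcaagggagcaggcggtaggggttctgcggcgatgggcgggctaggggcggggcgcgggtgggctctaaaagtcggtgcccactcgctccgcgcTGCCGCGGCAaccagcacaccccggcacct
MEST, upstream start: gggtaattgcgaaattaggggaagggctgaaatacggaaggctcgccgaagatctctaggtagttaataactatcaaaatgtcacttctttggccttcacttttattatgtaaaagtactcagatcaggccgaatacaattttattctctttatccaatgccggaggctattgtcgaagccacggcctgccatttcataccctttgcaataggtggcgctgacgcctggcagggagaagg

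Depth differed between the libraries, from 8963079 reads in a PEO1 library to 60435027 in an A2780 library. The share of reads that fell in windows of the table also differed, from 8.38% to 10.0% in A2780 and from 38.9% to 40.8% in PEO1, and the median FPKM over all windows was between 0.645 and 0.732 in A2780 and between 2.79 and 2.93 in PEO1. Levels were therefore also read as percentiles among all windows of the same line. Every window of the table had a value above 2 FPKM in 2 or more libraries of the 18, so a region that was closed in every line is not in the table. Among the member windows, 12 of 40 exceeded 2 FPKM in libraries of a single line only, 6 of them in CP70, 3 in PEA2, 2 in PEO1 and 1 in PEO4, and such windows had to differ between lines.

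Promoter windows of the imprinted genes differed in level between the lines. Their median percentile was 68.8 in A2780 and 69.2 in CP70. It was 60.2 for PEA1 against 25.1 for PEA2, and 51.5 for PEO1 against 44.8 for PEO4. In PEA2, 4 of the 18 promoter windows stood above the median window of that line, against 10 of 18 in PEA1. Distal windows had median percentiles of 65.7 in A2780 and 73.5 in CP70, of 41.4 and 52.7 in PEA1 and PEA2, and of 22.9 and 34.4 in PEO1 and PEO4. The 5 windows at starts of other genes were the most open class, with median percentiles from 75.5 in PEO4 to 91.9 in A2780.

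**Figure D1:**
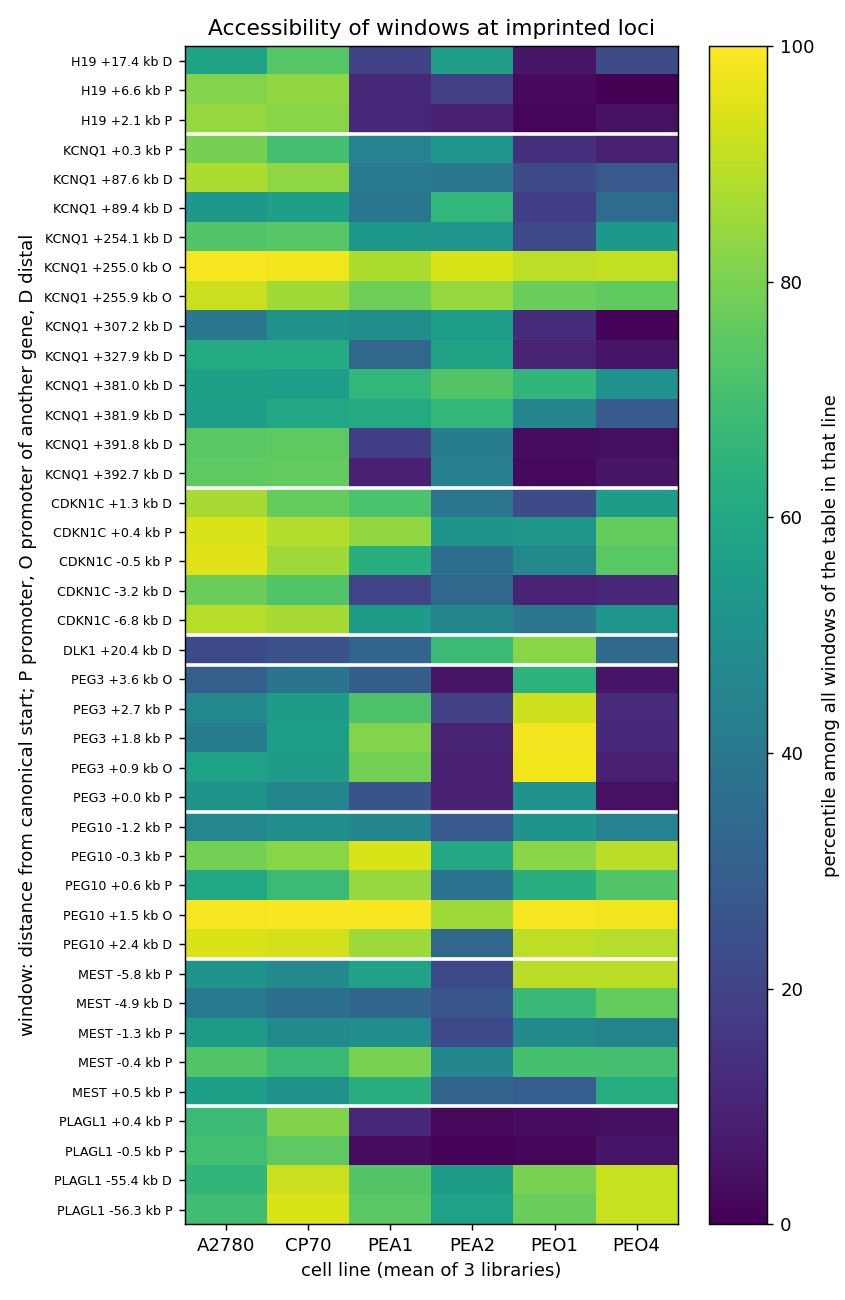
Percentile of each of the 40 windows (rows, by gene and distance of the window centre from the canonical start) among all windows of the table in each of the 6 lines (columns, mean of 3 libraries). The windows at the start of KCNQ1OT1 (KCNQ1 +255.0 kb) and inside the divergent start of PEG10 and SGCE (PEG10 +1.5 kb) are above the 85th percentile in every line, whereas the PEG3 window at +1.8 kb is at 98.1 in PEO1, 81.3 in PEA1 and 10.1 in PEA2.

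Each resistant line was compared with its own sensitive line to ask where accessibility had changed in resistance. A window was tested where its mean over the 6 libraries of a pair was above 1 FPKM. Windows were called by an adjusted p below 0.05, and as strong changes where also the log2 fold change was above 2 in size and the adjusted p below 0.001. In CP70 against A2780, 25 member windows were tested, 11 were higher, 0 were lower, and 0 were strong changes. Of all windows tested in that pair 49.7% were called and 0.797% were strong, and 95.4% of the calls were higher. In PEA2 against PEA1, 30 were tested, 9 were higher and 11 lower, and 2 were strong, beside 64.4% called and 12.7% strong among all windows. In PEO4 against PEO1, 29 were tested, 8 were higher and 10 lower, and 6 were strong, beside 67.7% called and 8.49% strong among all. The shares of members called (44%, 66.7% and 62.1%) thus lay near those of all windows. Without A2780 replicate 1, 2 or 3 or CP70 replicate 3 the count in CP70 was 6, 6, 5 or 6, in this order, and 1 window was a strong change without A2780 replicate 2, CP70 replicate 2 or CP70 replicate 3.

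All tested windows together had a median log2 fold change of 0.59 for CP70, 0.31 for PEA2 and -0.30 for PEO4, and the split of the members moved when each library was centred on its own median. Once centred, CP70 had 2 member windows higher and 2 lower, PEA2 had 4 higher and 16 lower, and PEO4 had 12 higher and 7 lower. The share of calls that were higher among all windows went to 40.1% from 95.4% for CP70, to 48.0% from 66.8% for PEA2 and to 53.0% from 32.3% for PEO4. Of 13 promoter windows tested in PEA2, 1 was higher and 7 lower (median log2 fold change -0.65), and of 13 distal windows 7 were higher and 2 lower (median 0.52). After centring, these were 0 higher and 11 lower for promoters, and 4 higher and 3 lower for distal windows. With the 5 Mb median removed they were 0 higher and 10 lower (median -1.47) and 2 higher and 3 lower (median -0.45), so the opposite signs of the medians did not hold. In PEO4, 5 promoter windows were higher and 4 lower of 13 tested, and 3 distal windows were higher and 3 lower of 11. With the 5 Mb median removed, 9 promoter windows were higher and 3 lower there (median 0.70 against -0.15 before), and 4 distal windows were higher and 3 lower. In CP70, 6 of 11 promoter windows and 5 of 11 distal windows were higher and 0 were lower. The counts by class were not made over all promoter or all distal windows. They are therefore not shown to be particular to the imprinted loci.

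**Figure D2:**
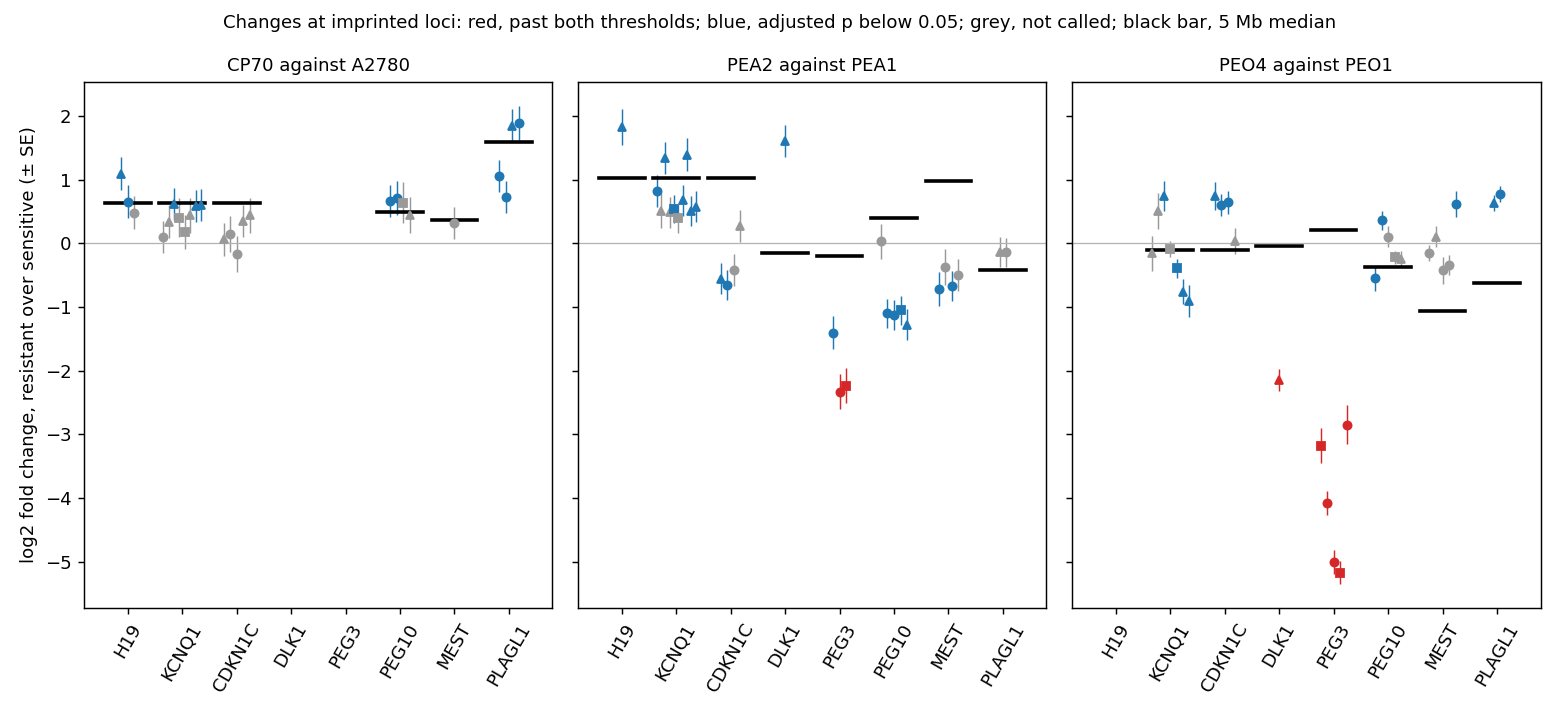
Log2 fold change with its standard error (y axis) of each tested window by gene (x axis), in the 3 pairs; circles are promoter windows, squares windows at the start of another gene and triangles distal windows, colours give the call and the black bar is the 5 Mb median. All 5 PEG3 windows and the DLK1 window are past both thresholds in PEO4, and the PLAGL1 windows of CP70 lie on both sides of the black bar near 1.59.

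PEG3, which encodes a zinc finger protein made from the paternal copy, held the largest changes at these loci. Its 5 neighbouring windows span the shared start of PEG3, ZIM2 and MIMT1 and the first 4.1 kb of the gene, and they were open in PEO1 and closed in PEO4. At chr19:57349800-57350800, a promoter window of PEG3, the PEO1 libraries had 20.03, 22.0 and 18.8 FPKM and the PEO4 libraries had 0.349, 0.720 and 0.598. The PEA1 libraries had 2.92, 3.30 and 2.01 FPKM and the PEA2 libraries had 0.385, 0.867 and 0.266. A2780 stood at 0.715, 0.496 and 0.496 FPKM, and CP70 at 0.985, 1.08 and 1.01. Neither the PEO nor the PEA libraries overlapped within their pair, and PEO1 was above all other lines. These values rest on 198, 252 and 169 reads in PEO1 and on 6, 15 and 12 in PEO4.

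The mean was 36.5 times higher in PEO1 than in PEO4, with a log2 fold change of -5.00 ± 0.19 (SE, n = 3 against 3, adjusted p = 2.15e-22). The next window towards the start, chr19:57350700-57351700, which overlaps a start of MIMT1, changed as much. It had 20.6, 20.1 and 19.5 FPKM in PEO1 and 0.523, 0.528 and 0.349 in PEO4 (log2 fold change -5.17 ± 0.18, adjusted p = 2.61e-23), and ranked 9th by size among the 77654 windows tested in that pair. Over the 5 windows the log2 fold changes ran from -2.85 to -5.17, and all 5 were strong changes, beside a 5 Mb median of 0.21. The smallest change was that of the window with the canonical start (chr19:57351600-57352600), where PEO1 had 3.04, 3.14 and 2.56 FPKM and PEO4 had 0.233, 0.336 and 0.399. This window and the one farthest into the gene (chr19:57348000-57349000, at a start of ZIM2) exceeded 2 FPKM in PEO1 only, so both are in the table through that line.

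PEA2 showed the same direction at a lower level. Of the 5 windows 3 were tested there, all 3 were lower than in PEA1, and 2 were strong changes. The log2 fold change was -2.33 ± 0.27 at chr19:57349800-57350800 (adjusted p = 5.44e-17) and -2.23 ± 0.27 at chr19:57350700-57351700 (adjusted p = 2.69e-15), beside a 5 Mb median of -0.20. With a pseudocount of 1 instead of 0.1 neither passed the fold threshold in PEA2, at -1.32 and -1.27. None of the windows reached the mean of 1 FPKM in A2780 and CP70, whose libraries lay between 0.227 and 1.496 FPKM over all 5.

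**Figure D3:**
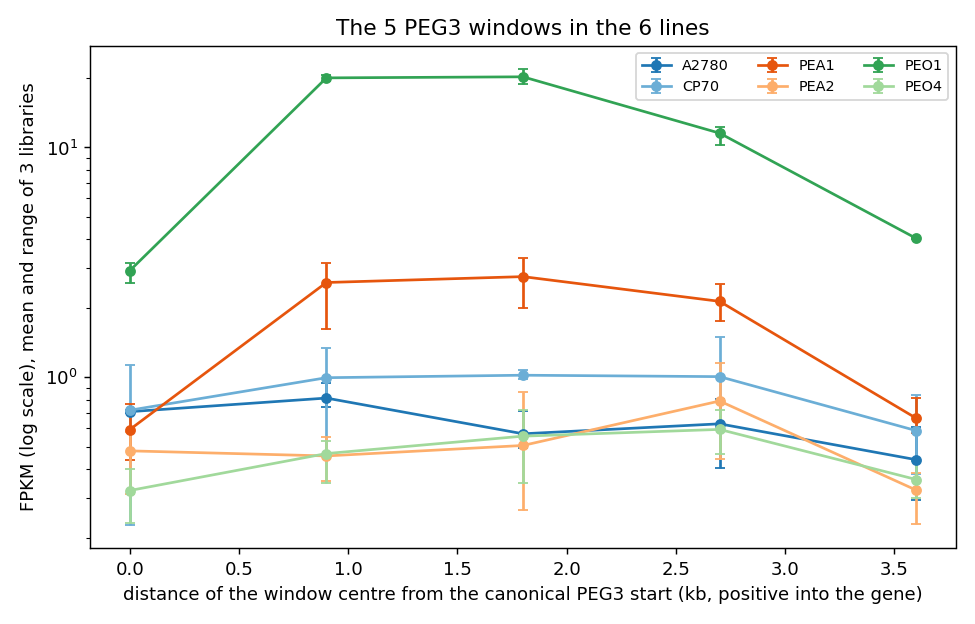
FPKM (log scale, y axis) of the 5 PEG3 windows against the distance of their centres from the canonical start (x axis, positive into the gene), as the mean and range of 3 libraries for each line. The PEO1 line lies between 2.91 and 20.3 FPKM, PEA1 reaches 2.74, and the other 4 lines stay near or below 1.

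The change in PEO4 differed from that in PEA2 by 2.67 ± 0.37 on the log2 scale at chr19:57349800-57350800, with the larger fall in PEO4. Beyond these windows the nearest tested windows of the table lay 138.0 kb after the end of the gene and 330.7 kb before its start. In PEO4 they had log2 fold changes of -0.79 ± 0.18 (adjusted p = 0.000207) and 0.25 ± 0.17 (adjusted p = 0.204), so the change of more than 2.8 was not seen at either. From the far end to the canonical start the 5 windows held 1, 3, 5, 5 and 1 YY1 cores. Among all windows of the table, 14.97% held a YY1 core at all and 0.129% held 3 or more.

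DLK1, a transmembrane relative of Notch ligands expressed from the paternal chromosome, was represented by 1 distal window between DLK1 and MEG3 (chr14:101213100-101214100), 20.4 kb from the canonical start of DLK1. It had 7.49, 6.81 and 6.80 FPKM in PEO1 and 1.34, 1.78 and 1.44 in PEO4. The PEA1 libraries had 0.641, 0.623 and 0.911 FPKM and the PEA2 libraries 2.58, 2.49 and 2.13. In A2780 and CP70 all 6 libraries were between 0.227 and 0.544 FPKM. The 2 pairs moved apart, with the resistant line low in the PEO pair and high in the PEA pair. The log2 fold change was -2.15 ± 0.17 in PEO4 (adjusted p = 2.72e-13, a strong change) and 1.61 ± 0.26 in PEA2 (adjusted p = 1.54e-09), and the difference between these changes was 3.76 ± 0.30. The 5 Mb medians there were -0.04 and -0.15. Some nearby windows also moved, and others did not pass the test. In PEO4 the change was -1.06 ± 0.15 at 31.9 kb before the gene and -2.22 ± 0.35 at 249.7 kb after it. At 16.6 kb before the gene it was 2.70 ± 0.26 in PEA2 but -0.43 ± 0.26 in PEO4 (adjusted p = 0.143). In PEA2 the window 31.9 kb before the gene had 0.31 ± 0.23 (adjusted p = 0.226), and that 334.3 kb after it 0.64 ± 0.23.

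H19 is a maternally expressed noncoding RNA that shares its control region with IGF2. Its most open window at an annotated start (chr11:2018700-2019700) was above 1 FPKM in the A2780 pair only. A2780 had 1.78, 1.55 and 1.37 FPKM and CP70 had 2.27, 2.21 and 3.14. PEA1 had 0.224, 0.405 and 0.432 FPKM and PEA2 had 0.714, 0.809 and 0.843. PEO1 had 0.405, 0.262 and 0, and PEO4 had 0, 0.192 and 0.0996, which were 0 to 4 reads in a library. A count of 0 allows up to 0.334 FPKM in that PEO1 library and 0.174 in that PEO4 library, counting error only. A2780 stood at the 81.5th percentile of its windows and PEO4 at the 0.3th.

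The window over the control region with the CTCF core shown above (chr11:2023200-2024200) was likewise highest in CP70 and A2780. A2780 had 1.90, 1.69 and 1.57 FPKM and CP70 had 2.58, 2.33 and 2.39. The other lines were below 0.6 FPKM in every library, PEA1 from 0.288 to 0.436, PEA2 from 0.399 to 0.550, PEO1 from 0 to 0.446 and PEO4 from 0.240 to 0.349. Both windows exceeded 2 FPKM in CP70 only, and neither reached a mean of 1 FPKM in the PEA and PEO pairs, so these were not tested. In CP70 the log2 fold change was 0.65 ± 0.26 at the start (adjusted p = 0.0275) and 0.48 ± 0.26 over the control region (adjusted p = 0.102), beside a 5 Mb median of 0.63. The call at the start did not hold without A2780 replicate 2 (adjusted p = 0.0769), A2780 replicate 3 (0.143) or CP70 replicate 3 (0.130). A distal window 17.4 kb from the canonical start, past the end of H19 (chr11:2007900-2008900), was higher in CP70 (log2 fold change 1.09 ± 0.26, adjusted p = 0.000379) and in PEA2 (1.83 ± 0.28, adjusted p = 5.91e-10), with 5 Mb medians of 0.63 and 1.02. PEA1 had 0.449, 0.467 and 0.527 FPKM there and PEA2 had 1.87, 2.31 and 1.73, whereas the call in CP70 was lost when each library was centred (adjusted p = 0.167).

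KCNQ1 encodes a potassium channel, and its intron holds the control region from which the paternal antisense RNA KCNQ1OT1 starts. The window at the start of KCNQ1OT1 (chr11:2720700-2721700) was among the most open at these loci in every line. PEO1 had 11.2, 9.51 and 9.47 FPKM and PEO4 had 9.07, 10.9 and 8.52. CP70 had 7.80, 5.21 and 5.70 and A2780 had 4.13, 5.59 and 4.23. PEA2 had 4.78, 5.55 and 4.79, and PEA1 was lowest at 3.75, 3.33 and 3.21. Its percentile was between 87.7 and 98.6 in each line. In FPKM, PEO1 and PEO4 were above the other lines and did not differ beyond their spread, and PEO4 was above CP70, the next in order (0.61 ± 0.20 on the log2 scale, adjusted p = 0.00484). This order did not hold by percentile, where PEO1 stood at 90.1 and A2780 above 96.6. Only PEA2 passed the test within a pair (log2 fold change 0.54 ± 0.23, adjusted p = 0.0285), with a 5 Mb median of 1.03. With that median removed the change was -0.49 (adjusted p = 0.0649), and without PEA1 replicate 1 or 2 or PEA2 replicate 2 or 3 the adjusted p was 0.0568 to 0.0987. In PEO4 the log2 fold change was -0.09 ± 0.12 (adjusted p = 0.551), and 0.26 (adjusted p = 0.0473) after centring.

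At the start of KCNQ1 itself (chr11:2466000-2467000, shared with TRPM5) levels were low. PEA1 had 1.25, 0.997 and 0.815 FPKM and PEA2 had 1.98, 1.503 and 2.13, the highest mean of the lines. A2780 had 1.57, 1.44 and 1.37, and CP70 had 0.985, 1.98 and 2.01. PEO1 had 0.708, 1.40 and 0.334, and PEO4 had 0.581, 0.480 and 0.399. No pair of neighbours in the order of the lines differed beyond the spread. PEA2 was higher than PEA1 (log2 fold change 0.82 ± 0.25, adjusted p = 0.00257), and with the 5 Mb median of 1.03 removed the value was -0.21 (adjusted p = 0.521). Over the gene, 7 of 10 tested windows were higher in PEA2 and 0 lower, 3 of 8 were higher in CP70 and 0 lower, and 1 of 7 was higher and 3 lower in PEO4. Of the higher windows, 3 in PEA2, 1 in CP70 and the 1 in PEO4 are in the table through that line alone, which leaves 4 of 7, 2 of 7 and 0 of 6.

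The distal KCNQ1 window with the largest called change in CP70 lay beside the start of KCNQ1OT1 (chr11:2719800-2720800), with 1.19 ± 0.04 FPKM (SD, n = 3) in A2780 and 1.88 ± 0.08 in CP70. Its log2 fold change was 0.62 ± 0.25 (adjusted p = 0.0316), and -0.01 with the 5 Mb median removed. It missed the threshold when any of 5 of the 6 libraries was left out (adjusted p from 0.0532 to 0.0927, A2780 replicates 1 to 3 and CP70 replicates 2 and 3). In PEA2 the largest change was at chr11:2793600-2794600, where PEA1 had 0.737, 0.997 and 0.479 FPKM and PEA2 had 2.20, 1.79 and 2.13 (log2 fold change 1.40 ± 0.26, adjusted p = 4.09e-07, 5 Mb median 1.02). This window is in the table through PEA2 alone, so its direction was favoured by that entry. In PEO4 it was at chr11:2847600-2848600, with 2.53, 1.57 and 3.68 FPKM in PEO1 and 1.40, 1.25 and 1.15 in PEO4 (log2 fold change -0.91 ± 0.25, adjusted p = 0.00179, 5 Mb median -0.10). That same window was higher in PEA2 than in PEA1 (0.58 ± 0.24, adjusted p = 0.0253), which was lost without PEA1 replicate 3 (0.406) or PEA2 replicate 1 (0.0770) or 2 (0.0932), and became -0.45 (adjusted p = 0.108) without the 5 Mb median.

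CDKN1C, the cyclin-dependent kinase inhibitor p57 made from the maternal copy, moved in opposite directions in the PEA and PEO pairs. The window at its canonical start (chr11:2906100-2907100) had 3.33, 3.05 and 2.49 FPKM in PEA1 and 1.92, 1.68 and 1.91 in PEA2. PEO1 had 2.43, 3.23 and 3.46 FPKM and PEO4 had 4.88, 5.18 and 3.84. A2780 had 2.77, 3.15 and 2.74 and CP70 had 3.18, 3.11 and 3.35. The PEA and PEO libraries did not overlap within their pairs, and those of A2780 and CP70 did. The log2 fold change was -0.65 ± 0.23 in PEA2 (adjusted p = 0.00906, but 0.0713 without PEA1 replicate 1), 0.60 ± 0.17 in PEO4 (adjusted p = 0.00274) and 0.15 ± 0.28 in CP70 (adjusted p = 0.637). The 5 Mb medians were 1.03, -0.10 and 0.64, so in the PEA and PEO pairs CDKN1C and its region had opposite signs. The change in PEA2 differed from that in PEO4 by -1.25 ± 0.28.

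Around CDKN1C, 2 of 4 tested windows were lower in PEA2 and 0 higher, and in PEO4 3 of 4 were higher and 0 lower. The distal window beside the start (chr11:2905200-2906200) had 1.99, 2.55 and 1.82 FPKM in PEA1, 1.26, 1.68 and 1.29 in PEA2, 1.52, 1.48 and 1.34 in PEO1, and 2.38, 2.98 and 2.19 in PEO4. Its log2 fold change was 0.75 ± 0.22 in PEO4 (adjusted p = 0.00315) and -0.55 ± 0.24 in PEA2 (adjusted p = 0.0350), the latter lost without PEA1 replicate 1 (0.0638) or 2 (0.189) or PEA2 replicate 1 (0.106) or 3 (0.128). In PEA2 the nearest tested windows beyond the 10 kb extension after CDKN1C on the chromosome rose. The change was 1.15 ± 0.25 at 12.6 kb and 0.96 ± 0.26 at 15.3 kb. Nearer to the gene, the distal window chr11:2913300-2914300 had 0.27 in PEA2 and was not called. In CP70 0 of 5 windows were called, and after centring the distal window had -0.51 (adjusted p = 0.0474).

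**Figure D4:**
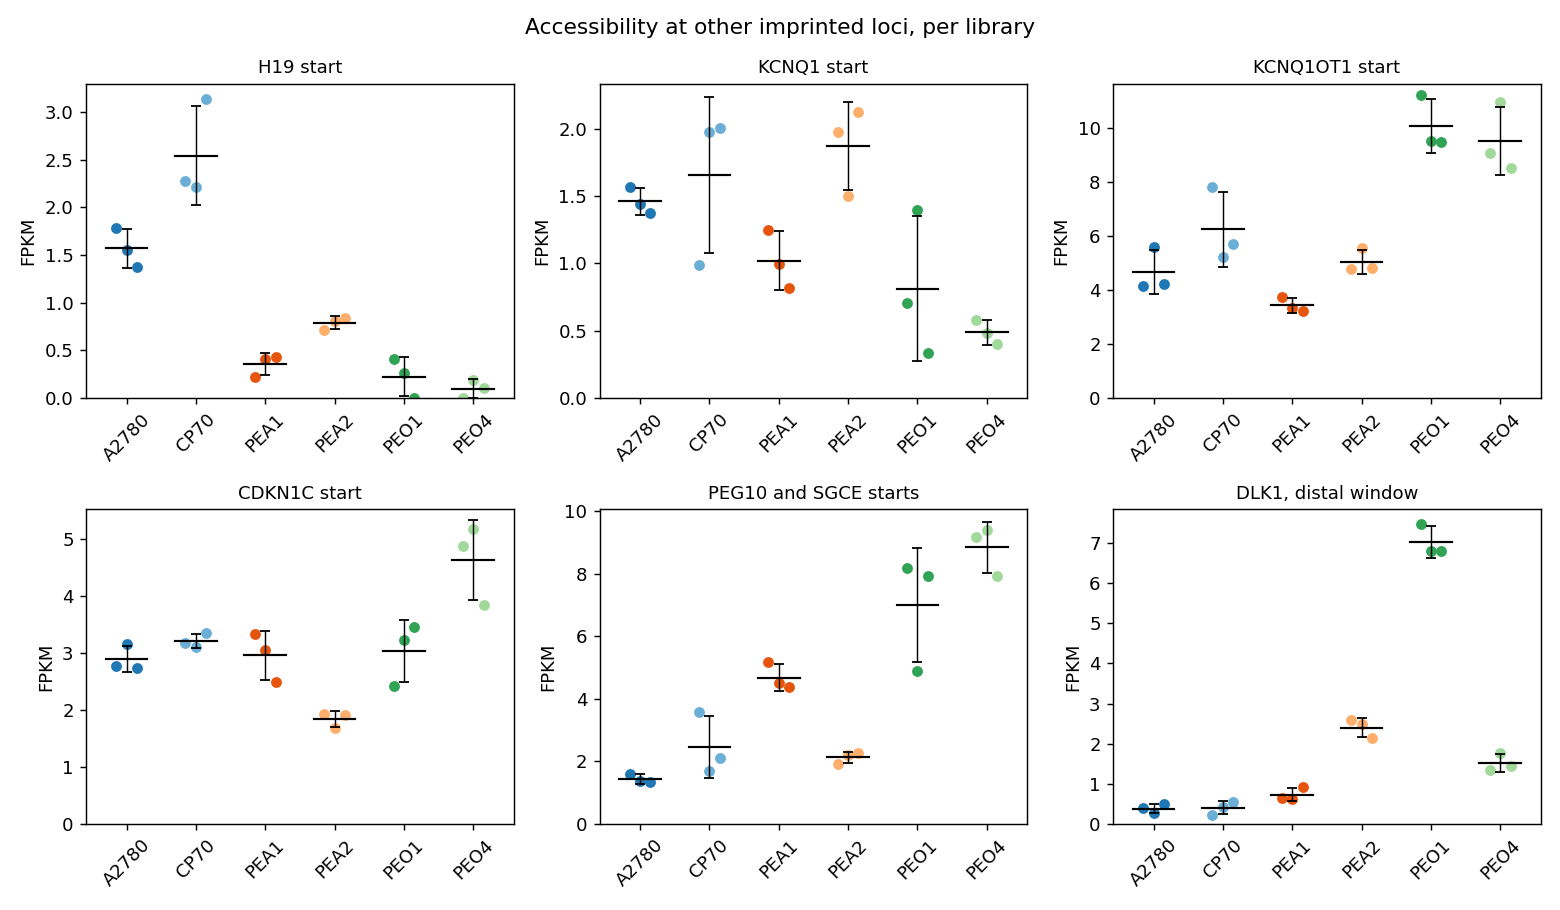
FPKM (y axis) of every library in the 6 lines (points; bar and whiskers, mean ± SD of 3) for windows at the starts of H19, KCNQ1, KCNQ1OT1, CDKN1C and PEG10, and for the distal DLK1 window. H19 is above 1 FPKM in A2780 and CP70 only, KCNQ1OT1 is above 3 in every library, CDKN1C is lowest in PEA2, and the DLK1 window is highest in PEO1.

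PEG10, a paternally expressed gene derived from a retrotransposon, starts back to back with SGCE, which encodes a sarcoglycan. The window with the canonical start (chr7:94284900-94285900) had 5.16, 4.49 and 4.36 FPKM in PEA1 and 1.92, 2.20 and 2.26 in PEA2. PEO1 had 8.19, 4.89 and 7.91 FPKM and PEO4 had 9.19, 9.41 and 7.92. A2780 had 1.60, 1.37 and 1.32 and CP70 had 3.56, 1.68 and 2.09. The PEA libraries were clearly apart, whereas PEO1 and PEO4 overlapped. PEA2 fell by 1.10 ± 0.23 on the log2 scale (adjusted p = 4.67e-06), beside a 5 Mb median of 0.40. In CP70 the change was 0.67 ± 0.25 (adjusted p = 0.0233, lost without A2780 replicate 2 at 0.0791, A2780 replicate 3 at 0.110 or CP70 replicate 1 at 0.177, and 0.17 beyond the 5 Mb median of 0.50). In PEO4 it was 0.37 ± 0.15 (adjusted p = 0.0282, lost without PEO1 replicate 2 at 0.423, PEO4 replicate 1 at 0.0906 or PEO4 replicate 2 at 0.105).

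The most open window of all the loci in PEO1 lay 1.5 kb into PEG10, at another start of SGCE (chr7:94286700-94287700). It had 19.1, 22.2 and 24.5 FPKM in PEO1 and 19.1, 18.3 and 18.7 in PEO4, and 4.34, 5.43 and 4.79 in A2780. PEA1 had 8.11, 8.26 and 5.66 FPKM and PEA2 had 2.75, 3.29 and 4.53, a log2 fold change of -1.05 ± 0.23 (adjusted p = 1.33e-05). Over the locus 4 of 5 windows were lower in PEA2 and 0 higher, from -1.05 to -1.27 in the 4, the largest in the distal window 2.4 kb into the gene (chr7:94287600-94288600), which had 3.24, 3.49 and 2.69 FPKM in PEA1 and 1.10, 1.16 and 1.46 in PEA2. In contrast to the locus, a window 34.8 kb before PEG10 rose in PEA2 by 1.23 ± 0.23 (adjusted p = 3.96e-07). The change at the start in PEA2 differed from that in CP70 by -1.76 ± 0.34 and from that in PEO4 by -1.46 ± 0.26. None of the motif cores was found in the 5 windows of PEG10.

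MEST, which encodes an enzyme of the hydrolase family, is imprinted at its canonical start and not at its upstream start. The upstream window (chr7:130125600-130126600) was open in the PEO lines, with 10.9, 9.68 and 8.69 FPKM in PEO1 and 7.73, 10.9 and 7.97 in PEO4. A2780 had 0.785, 0.586 and 0.760 FPKM, CP70 had 0.682, 0.838 and 0.796, PEA1 had 1.35, 1.56 and 1.53, and PEA2 had 0.934, 1.10 and 0.621. PEO4 was above PEA1, the next line in the order, by 2.49 ± 0.22 on the log2 scale (adjusted p = 5.1e-15), and PEO1 and PEO4 did not differ beyond their spread (adjusted p = 0.597). In percentiles PEO1 and PEO4 stood at 89.5 and 89.8, and the other lines between 22.0 and 57.7.

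The canonical window of MEST (chr7:130131000-130132000, shared with MESTIT1) varied less. PEO1 had 5.06, 4.45 and 4.90 FPKM and PEO4 had 4.30, 3.94 and 3.19. PEA1 had 2.85, 3.05 and 2.01, and PEA2 had 1.21, 1.56 and 2.13. A2780 had 1.31, 1.24 and 1.02, and CP70 had 1.44, 1.62 and 1.47. The upstream window had 2.04 ± 0.23 (SD, n = 3) times the FPKM of the canonical window in PEO1 and 2.36 ± 0.50 times in PEO4. In the other 4 lines this ratio was between 0.512 and 0.605, and no library of theirs exceeded 0.773. PEA2 fell at the canonical start by 0.67 ± 0.24 on the log2 scale (adjusted p = 0.00785, with a 5 Mb median of 0.97). That call was lost without PEA1 replicate 1 (0.0525), PEA1 replicate 2 (0.0628) or PEA2 replicate 1 (0.0992). At the canonical start PEO4 had -0.34 ± 0.16 (adjusted p = 0.0600, and 0.0439 without PEO4 replicate 1), but with the 5 Mb median of -1.05 removed this became 0.72 (adjusted p = 0.000249). At the neighbouring window with a start of MESTIT1 (chr7:130130100-130131100) the change in PEO4 was -0.42 ± 0.21 (adjusted p = 0.0767), and 0.63 (adjusted p = 0.0119) beyond that median.

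PLAGL1 encodes a zinc finger transcription factor that slows cell division, and its canonical start is imprinted and shared with the noncoding RNA HYMAI. The canonical window (chr6:144328500-144329500) was open in the A2780 pair only, with 0.924, 0.991 and 1.27 FPKM in A2780 and 2.80, 1.80 and 2.39 in CP70. PEA1 had 0.417, 0.374 and 0.240 FPKM, PEA2 had 0.165, 0.231 and 0.222, PEO1 had 0.304, 0.262 and 0.223, and PEO4 had 0.233, 0.336 and 0.349. The 12 libraries of the PEA and PEO pairs held 2 to 13 reads each at this window, and their lines stood between the 2.2nd and the 11.0th percentile. It exceeded 2 FPKM in CP70 only, and was not tested in the PEA and PEO pairs.

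The upstream window of PLAGL1 (chr6:144385200-144386200) lay at -56.3 kb from the canonical start (negative is upstream). Its FPKM was highest in the PEO lines, where the canonical start was low. By percentile among the windows of each line it was above the 90th in CP70 and PEO4 and below the 90th in PEO1, so PEO1 ranked below CP70. PEO4 had 10.9, 10.4 and 9.07 FPKM and PEO1 had 5.06, 6.54 and 6.02. CP70 had 6.59, 3.29 and 3.64, against 1.03, 1.31 and 0.942 in A2780. PEA1 had 2.53, 2.62 and 1.68, and PEA2 had 2.14, 1.79 and 2.13. PEO4 was above PEO1 (0.78 ± 0.22 on the log2 scale, adjusted p = 0.0025, over all 6 lines), PEO1 and CP70 did not differ beyond their spread (adjusted p = 0.061), and A2780 was below PEA2 (adjusted p = 0.00066). The ratio of the upstream to the canonical window was 1.06 ± 0.29 (SD, n = 3) in A2780 and 1.90 ± 0.42 in CP70. It was 6.69 ± 0.53 in PEA1 and 10.1 ± 2.7 in PEA2, and it reached 22.9 ± 5.5 in PEO1 and 34.5 ± 10.9 in PEO4. The canonical counts behind the ratios of the PEO lines were 2 to 7 reads.

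**Figure D5:**
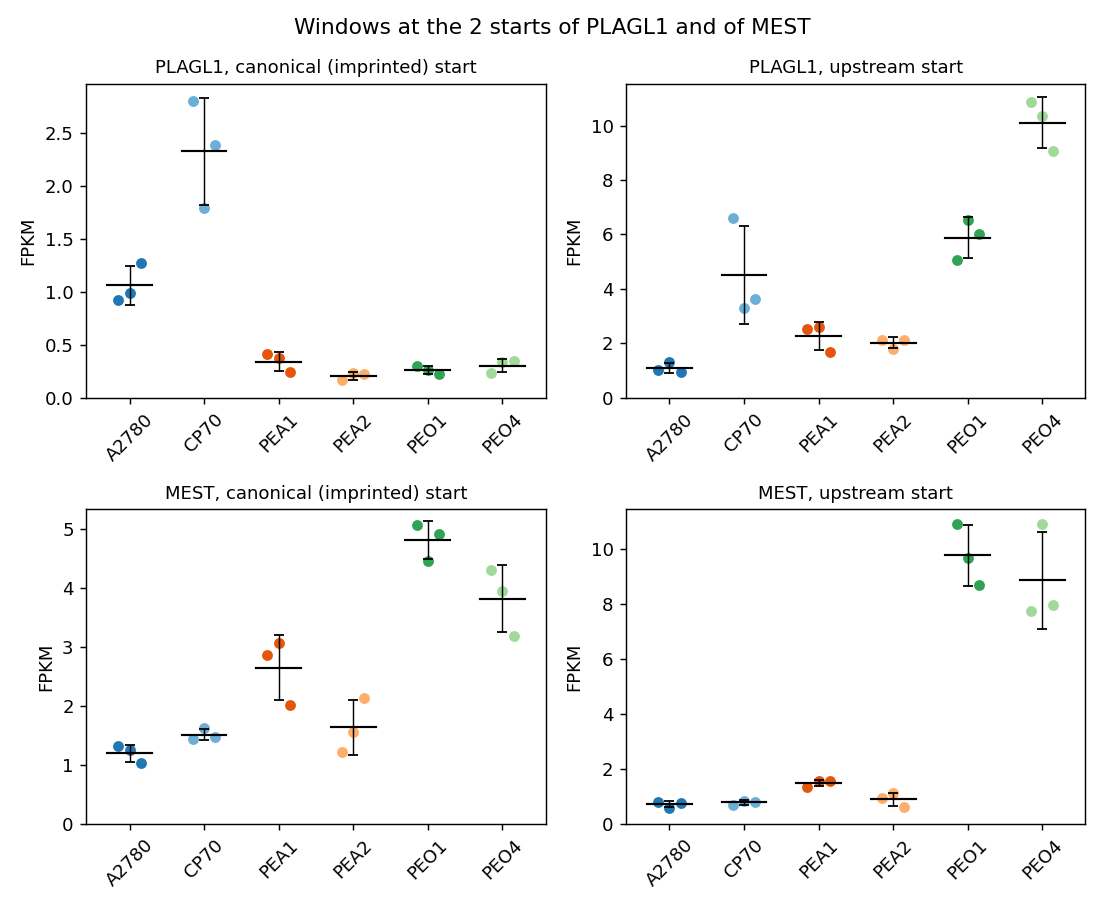
FPKM (y axis) of every library in the 6 lines (points; bar and whiskers, mean ± SD of 3) at the imprinted canonical start and the upstream start of PLAGL1 and MEST. The canonical PLAGL1 start is above 0.5 FPKM in A2780 and CP70 only, and the upstream MEST start is above 7 FPKM in PEO1 and PEO4 and below 2 elsewhere.

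Both upstream windows of PLAGL1 were higher in CP70 than in A2780, and so were the 2 canonical windows, which are in the table through CP70 alone, with log2 fold changes of 1.05 ± 0.25 at the canonical start (adjusted p = 0.00034) and 1.89 ± 0.26 at the upstream start (adjusted p = 5.46e-11). The region as a whole was higher: the 5 Mb median was 1.59 over these windows, and the nearest tested windows outside had 1.63 (95.7 kb beyond the gene) and 1.52 (30.1 kb before it). With the 5 Mb median removed the canonical start had -0.55 (adjusted p = 0.259) and the upstream start 0.32 (adjusted p = 0.74). IGF2R, another imprinted gene on chromosome 6, rose by a like amount in CP70 (1.52 ± 0.27, adjusted p = 6.3e-07, 5 Mb median 1.59). In PEO4 both upstream windows were higher, by 0.63 ± 0.13 at the distal window beside the start (chr6:144384300-144385300, adjusted p = 5.24e-05) and by 0.78 ± 0.13 at the start (adjusted p = 2.91e-06), against a 5 Mb median of -0.62. In PEA2 neither passed the test (both -0.14 ± 0.24, 5 Mb median -0.42). After centring, the distal window had -0.51 (adjusted p = 0.0146) there.

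The changes of the pairs were then compared with each other. PEA2 minus CP70 differed at 16 of 31 member windows, beside 55.7% of all windows, and PEO4 minus CP70 at 13 of 34, beside 48.1%. PEA2 minus PEO4 differed at 23 of 31, beside 68.1%. Of the 15 windows tested in all 3 pairs, 2 had one sign in each, both positive, and 0 were called in each. With the pair as the replicate, 0 of 31 member windows passed the limma test of resistant against sensitive lines, beside 0.0% of 74141 windows, and 4 had an unadjusted p below 0.05. These 4 were 3 PEG3 windows, with means over the pairs of -2.42, -2.19 and -1.64 on the log2 scale, and the distal H19 window at 1.37. Their adjusted p was 1.0, and 1021 of all windows had an unadjusted p below 0.05, with a lowest adjusted p of 0.172.

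Over the 6 lines PEO1 had the highest mean at 16 of the 40 windows, PEO4 at 10, CP70 at 9 and PEA2 at 5, and A2780 and PEA1 were highest at none. The 3 libraries of the highest line were above every other library at 10 of the 16 windows in PEO1, 5 of 10 in PEO4, 4 of 9 in CP70 and 3 of 5 in PEA2. Of these, 2, 1, 4 and 3 are in the table through that line alone, so for CP70 and PEA2 the way windows entered the table gives all of them. Both counts are of FPKM, whose median over all windows was 0.645 to 0.732 in A2780 and 2.79 to 2.93 in PEO1. The same counts over all windows were not made, so these are not shown to be particular to the imprinted loci. Between lines, 305 of 465 comparisons passed the test (31 windows, 15 pairs of lines), or 65.6%, beside 69.7% among all windows.

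Other imprinted genes were read from a list of 42, of which 34 had a start window in the table, 4 of them (SGCE, ZIM2, KCNQ1OT1 and HYMAI) the windows already described. Without these 4, 8 were higher and 1 lower of 27 tested in CP70, 6 higher and 4 lower of 24 in PEA2, and 4 higher and 8 lower of 27 in PEO4, where 2 were strong. The shares called were 33.3%, 41.7% and 44.4%, below the 49.7%, 64.4% and 67.7% of all windows. Those 2 were both on chromosome 15 in the Prader-Willi and Angelman region. ATP10A, a phospholipid transporter, went from 7.67 ± 1.40 FPKM (SD, n = 3) in PEO1 to 1.33 ± 0.13 in PEO4, and NDN, a growth suppressor, from 2.55 ± 0.39 to 0.512 ± 0.28. Their log2 fold changes were -2.43 ± 0.18 and -2.23 ± 0.33, beside 5 Mb medians of -1.31 and -1.04. Other tested starts of that region fell less or not at all in PEO4. SNRPN had 0.07 ± 0.20 (adjusted p = 0.764) and UBE3A -0.63 ± 0.10 (adjusted p = 1.28e-06), both beside a 5 Mb median of -1.32. GNAS, which encodes the stimulatory G protein alpha subunit, rose in PEO4 from 9.41 ± 1.17 to 26.9 ± 1.95 FPKM (1.51 ± 0.11, adjusted p = 1e-14, 5 Mb median 0.53). FAM50B fell in CP70 by 1.43 ± 0.25 on the log2 scale (adjusted p = 5.7e-07), against a 5 Mb median of 0.50. In PEA2 the largest fall of the list was that of the zinc finger gene ZNF331 (-1.53 ± 0.26, adjusted p = 1.9e-08, 5 Mb median -0.46).

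Of 20 genes that keep or read imprints, 15 had a start window, and 8 of the 15 (53.3%) were called in each pair, near the 49.7% of all windows in CP70 and below the 64.4% in PEA2 and 67.7% in PEO4. In CP70 all 8 were higher, with a median log2 fold change of 0.62 over the 15, near that of all windows. In PEA2 2 were higher and 6 lower, and in PEO4 5 were higher and 3 lower. The lower genes of PEA2 held TRIM28, which silences methylated control regions (-1.38 ± 0.23, adjusted p = 6.2e-09, 5 Mb median -0.20), and UHRF1 (-1.15 ± 0.24, adjusted p = 4.4e-06, 5 Mb median -0.19) and DNMT1 (-0.54 ± 0.23, adjusted p = 0.033, 5 Mb median -0.33), which maintain methylation. With its 5 Mb median removed DNMT1 had -0.21 in PEA2. The other lower genes of PEA2 were SUZ12 (-0.99, 5 Mb median 0.05), EHMT2 (-0.93, 5 Mb median -0.83) and DNMT3B (-0.75, 5 Mb median 0.06). The higher ones were EZH2 (0.88, 5 Mb median 1.35) and ARID4A (0.60, 5 Mb median 1.31). In PEO4 TRIM28 was higher by 0.46 and UHRF1 by 0.76 (5 Mb medians 0.21 and 0.33). DNMT1 had 0.34 there (adjusted p = 0.0133), which became -0.05 with its 5 Mb median of 0.40 removed. The other higher genes of PEO4 were EHMT2 (1.33, 5 Mb median 1.25) and SUZ12 (0.44, 5 Mb median 0.06). Lower in PEO4 were ARID4B (-1.10, 5 Mb median -1.71), EZH2 (-0.67, 5 Mb median -1.14) and TET2 (-0.54, 5 Mb median -0.62). The start of ZFP57 had no window in the table. Expression of these genes was not analysed here.

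The labelled cell type was read from marker starts. Of 9 epithelial and Müllerian markers 8 had a start window, and above the 90th percentile stood 4 of them in PEO4, 3 in PEO1, 1 in PEA2 and 0 in the other lines. EPCAM, an epithelial adhesion molecule, had 11.3 ± 0.6 and 10.5 ± 0.71 FPKM in PEO1 and PEO4 and 0.740 ± 0.12 to 2.09 ± 0.44 in the other lines. All 3 mesenchymal starts were above that percentile in PEA1, and VIM fell in PEA2 from 10.2 ± 1.49 to 1.60 ± 0.10 FPKM (-2.58 ± 0.23, adjusted p = 2.9e-28, 5 Mb median -1.49), the one strong change among the markers. None of 7 markers of blood, endothelium, liver and astrocytes had a start window in the table. These marker differences run between the same lines as the differences at the imprinted loci, and their part in them was not tested.

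The promoter windows of other genes whose log2 FPKM followed the start of each imprinted gene most closely over the 18 libraries were found by Pearson's r among 13415 to 13638 promoter windows on other chromosomes. These were PRDM9 for H19 (0.96), ITPRIPL1 for KCNQ1 (0.84), BBLN for CDKN1C (0.92), TMEM132C for PEG3 (0.92), the shared start of GRAMD1A and GRAMD1A-AS1 for PEG10 (0.99), FREM2 for MEST (0.97) and IFFO1 for PLAGL1 (0.91). The libraries share their lines and depths, so these values describe 6 lines more than 18 independent samples.

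By sequence, the promoter windows of the imprinted genes were CpG-rich in 72.2%, against 23.3% of all windows, and the 17 distal ones in 17.6%. The ZFP57 hexamer was present in 55.0% of the 40 windows and in 25.8% of all, and 3 or more copies in 27.5% and 2.51%. Among the 17 distal windows it was present in 35.3%, and 3 or more copies in 5.88%. The hexamer is rich in G and C, and the median share of G and C was 62.5% in the 40 windows and 50.4% in all. The part of base composition in these shares was not tested. The CTCF core was present in 60% of the members and 39.8% of all, and the YY1 core in 17.5% and 14.97%. In the control regions the hexamer recurred 5 times over H19 (chr11:2023200-2024200), 4 times at the start of KCNQ1OT1, 5 times at the canonical start of PLAGL1 and 6 times in the MEST window just after its canonical start (chr7:130131900-130132900). It occurred 5 times in the PEG3 window with the largest fall. A match is a run of letters, not a measured binding site.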

How the data were processed

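ATAC-seq had been done on 18 libraries of 6 ovarian cancer cell lines. Per the study's methods and the submitters' processing notes, the authors marked duplicates with Picard, aligned reads to hg19 with Bowtie2, removed blacklisted and mitochondrial reads, counted reads in moving windows with featureCounts and scaled them with edgeR; versions and a shift for the transposase are not given in the sources used here. The deposited values are FPKM, which for windows of one length equal RPM (reads scaled to the mapped reads of the library) up to a constant, and 100% of them came out as whole reads (tolerance 0.01 read). Reads recovered this way gave the depths.

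Groups came from the sample labels. Windows were assigned with the GENCODE 44 annotation lifted to GRCh37, and coordinates are those of the table read as 1-based. Fold changes are on the scale of log2(FPKM + 0.1), which understates those of low windows. Pairs were compared with limma 3.58.1 (lmFit, eBayes with trend, R 4.3.3) on windows whose 6 libraries averaged above 1 FPKM, with Benjamini-Hochberg adjustment over all windows tested; the study's own thresholds gave the strong changes. Each difference between pairs came from a fit of only the libraries of the pairs compared, and differences between lines came from 1 fit of all 18 libraries. The filter in each was a mean above 1 FPKM over the libraries fitted. The alternatives were a pseudocount of 1, other filters, an upper limit of depth, centring, removal of 5 Mb medians, edgeR 4.0.16 on the recovered reads, a replicate block, each library left out, other gene spans and another promoter rule. The fits were tested on simulated data.

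The members and lists were chosen with earlier results of these data known. The windows given in full were, for each gene, that of the canonical start (or, where the table has none, its most open promoter window), the strong changes, the most changed distal window of each pair, and the starts of KCNQ1OT1, HYMAI, MESTIT1, SGCE and ZIM2. No table window lay at the canonical start of H19.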

Additional observations from a re-analysis of the deposited data

Results flagged for a closer look

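At several starts the changes of 2 pairs differed by the test of the difference itself (limma, adjusted p below 0.05). For CDKN1C (chr11:2906100-2907100) PEA2 minus CP70 was -0.80 and PEA2 minus PEO4 was -1.25 on the log2 scale. For KCNQ1 (chr11:2466000-2467000) PEA2 minus PEO4 was 1.29, which fell to 0.30 (adjusted p = 0.606) with the 5 Mb median removed and 0.49 (adjusted p = 0.337) with centring, and for MEST (chr7:130131000-130132000) PEA2 minus CP70 was -0.99. For PEG10 (chr7:94284900-94285900) PEA2 minus CP70 was -1.76 and PEA2 minus PEO4 was -1.46. For the canonical start of PEG3 (chr19:57351600-57352600) PEA2 minus PEO4 was 2.58 and PEO4 minus CP70 was -2.67. That PEG3 window is in the table through PEO1 alone, so a larger fall in PEO4 than in the other pairs was favoured by that entry. Contrasts with the same pair share its libraries and are not independent of each other.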

How the results depend on the processing

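Of the values of named windows over all alternatives, 527 kept direction and side of the threshold, 48 lost the call, 9 gained it and 9 reversed. With the 5 Mb median removed, reversals were seen in PEA2 at KCNQ1 2466000 (-0.21), 2720700 (-0.49) and 2847600 (-0.45), in CP70 at KCNQ1 2719800 (-0.014) and PLAGL1 144328500 (-0.55), and in PEO4 at MEST 130130100 (0.63) and 130131000 (0.72), where numbers name windows by their start and values are log2 fold changes. With libraries centred, KCNQ1 2720700 in PEO4 (0.26) and CDKN1C 2905200 in CP70 (-0.51) reversed. In CP70 the main setting gave 11 calls, all higher. The number of calls there was 1 with the 5 Mb median removed (0 higher and 1 lower) and 4 with centring (2 higher and 2 lower). So 0 of the 11 higher calls stood with the 5 Mb median removed, and at most 2 with centring. The number of calls was 7 without a filter and 0 at a minimum mean of 5 FPKM, where fewer windows are tested. It was 5 to 10 with 1 library left out. Strong changes in CP70 were 1 by edgeR and 0 to 1 with 1 library left out. At the minimum mean of 5 the calls were 1 in PEA2 and 8 in PEO4, the strong changes 0 and 3, the differences between pairs 1 (PEA2 minus CP70), 6 (PEO4 minus CP70) and 8 (PEA2 minus PEO4), and the comparisons of lines 22. A pseudocount of 1 left 0 strong changes in PEA2 and 3 in PEO4, and the upper limit of depth left 8 differences for PEO4 minus CP70. Spans extended by 50 kb held 89 windows and gave 27 calls in CP70, 42 in PEA2 (5 strong) and 30 in PEO4. Apart from these the causes were not tested. The PEG3 calls at 57349800 and 57350700 held in each of the 14 settings, from -5.41 to -3.78 in PEO4.

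Replicate numbers did not pair the libraries: deviations of libraries with one number had correlations of -0.41 to -0.04 for A2780 with CP70, -0.12 to -0.005 for PEA1 with PEA2 and 0.016 to 0.045 for PEO1 with PEO4. With the replicate block the calls were 9 in CP70, 17 in PEA2 and 21 in PEO4, the strong changes 0, 2 and 6, and the differences between pairs 16, 13 and 23. The low depth of PEO1 limits its values near 0.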
